A study of Mus musculus with 9 samples.

Results

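The 36 genes described here encode the enzymes of glycolysis and lactate formation, the pyruvate dehydrogenase complex and its kinases, and the hypoxia-inducible factor (HIF) pathway with some of its targets. They were chosen by name, as a list of these pathways, and not by a rule on their values. Earlier results of these data were known when the list was made. All 36 were found among the 14004 genes of the deposited table, and 35 of them were among the 13309 genes with enough signal to be tested. Aldoc, the gene of an aldolase isoform best known from brain, was the member that was not tested.

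Invariant natural killer T (iNKT) cells carry a semi-invariant receptor for lipid antigens, and the iNKT1 subset depends on T-bet, the product of Tbx21. RNA-seq of iNKT1 cells was done on 3 thymus, 3 liver and 3 spleen libraries from untreated C57BL/6 mice. All 3 groups shared the genotype Tbx21CreTg;Rosa26-LSL-YFP+/+, in which Cre under Tbx21 control switches on a yellow fluorescent reporter at Rosa26, so a cell stays marked after it has expressed Cre. The labels do not give the age of the mice, the sorting gate or whether the libraries came from separate animals, so p-values measure only the spread between these samples. Values are normalised read counts as deposited, and a level below is such a value unless another scale is named.

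Glycolysis splits glucose into pyruvate, which lactate dehydrogenase turns into lactate or pyruvate dehydrogenase passes to the mitochondrial citric acid cycle. When oxygen is low, the HIF-1α protein escapes the prolyl hydroxylases that mark it for destruction by the VHL ligase, and it then raises the transcription of many glycolytic genes. In T cells, resting cells rely largely on mitochondrial respiration, and activation raises glycolysis.

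The T-cell and iNKT1 markers were in place in every library. All 8 (Tbx21, Zbtb16, Il2rb, Klrb1c, Cd3e, Cd3g, Ifng and Cxcr3) had reads in each, and their summed level was 91450 to 124587 in thymus, 128570 to 148271 in liver and 87313 to 105551 in spleen. Depth, as whole reads recovered from the values, was 18503752 to 27711406 in thymus and 32485877 to 39567739 in spleen. In liver it was 31575726, 27682679 and 3873074. Thymus libraries 1 and 2 stood apart by sparse detection: 21.6% and 16.5% of the tested genes had no read there, against 3.67% to 12.3% in the other 7 libraries. The library numbered 2 of each tissue had an Xist level of 84543 to 107736 beside 6 to 21 reads from 4 Y-linked genes. Thymus library 3 had both, with Xist at 16531 and 7016 Y-linked reads. It was also the only library with reads for all 5 immature-thymocyte markers in the table. Among these Rag1 was at 486 there, against 0.815 or less in every other library. For several results that rest on the libraries named here, values are given with and without them. For others, among them the genes Taldo1, Cs, Pgm2, Elob and Mlxip described below, only values with all 9 libraries are given. A gene without a recovered read carries a value of 0 or under 0.05, or under 1 in liver library 3.

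Between tissues, no member of the list passed the test. With limma-trend on log2(value + 1) and Benjamini-Hochberg adjustment over all genes, 0 of the 35 members had an adjusted p under 0.05 in liver vs thymus, where 0.323% of all tested genes did. In spleen vs thymus it was 0 of 35 against 0.398% of all genes, and in liver vs spleen 0 of 35 against 0.015%. An F-test of any tissue difference in the same limma-trend fit called 0 of 35 members, with 0.346% of all genes called. At an unadjusted p under 0.05 the members numbered 1, 4 and 2 of 35 in those pairwise comparisons, against 11.6%, 11.7% and 3.03% of all genes. The F-test had 2 members and 9.95% of all genes at that level. edgeR on the recovered reads also called 0 members in each comparison, where 0.165%, 0.278% and 0.015% of all genes passed. DESeq2 on those reads called 0, 1 and 0, against 3.9%, 4.39% and 0.195% of all genes with an adjusted p. At an unadjusted p under 0.05 DESeq2 had 1, 6 and 2 members, beside 15.3%, 15.3% and 4.38% of all genes. The 1 call was Pdk3, lower in spleen than in thymus. The 2 comparisons with thymus share its 3 libraries and are not independent of each other. In these bulk samples, a change in RNA per cell and a change in the share of cells that express a gene cannot be told apart.

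**Figure D1:**
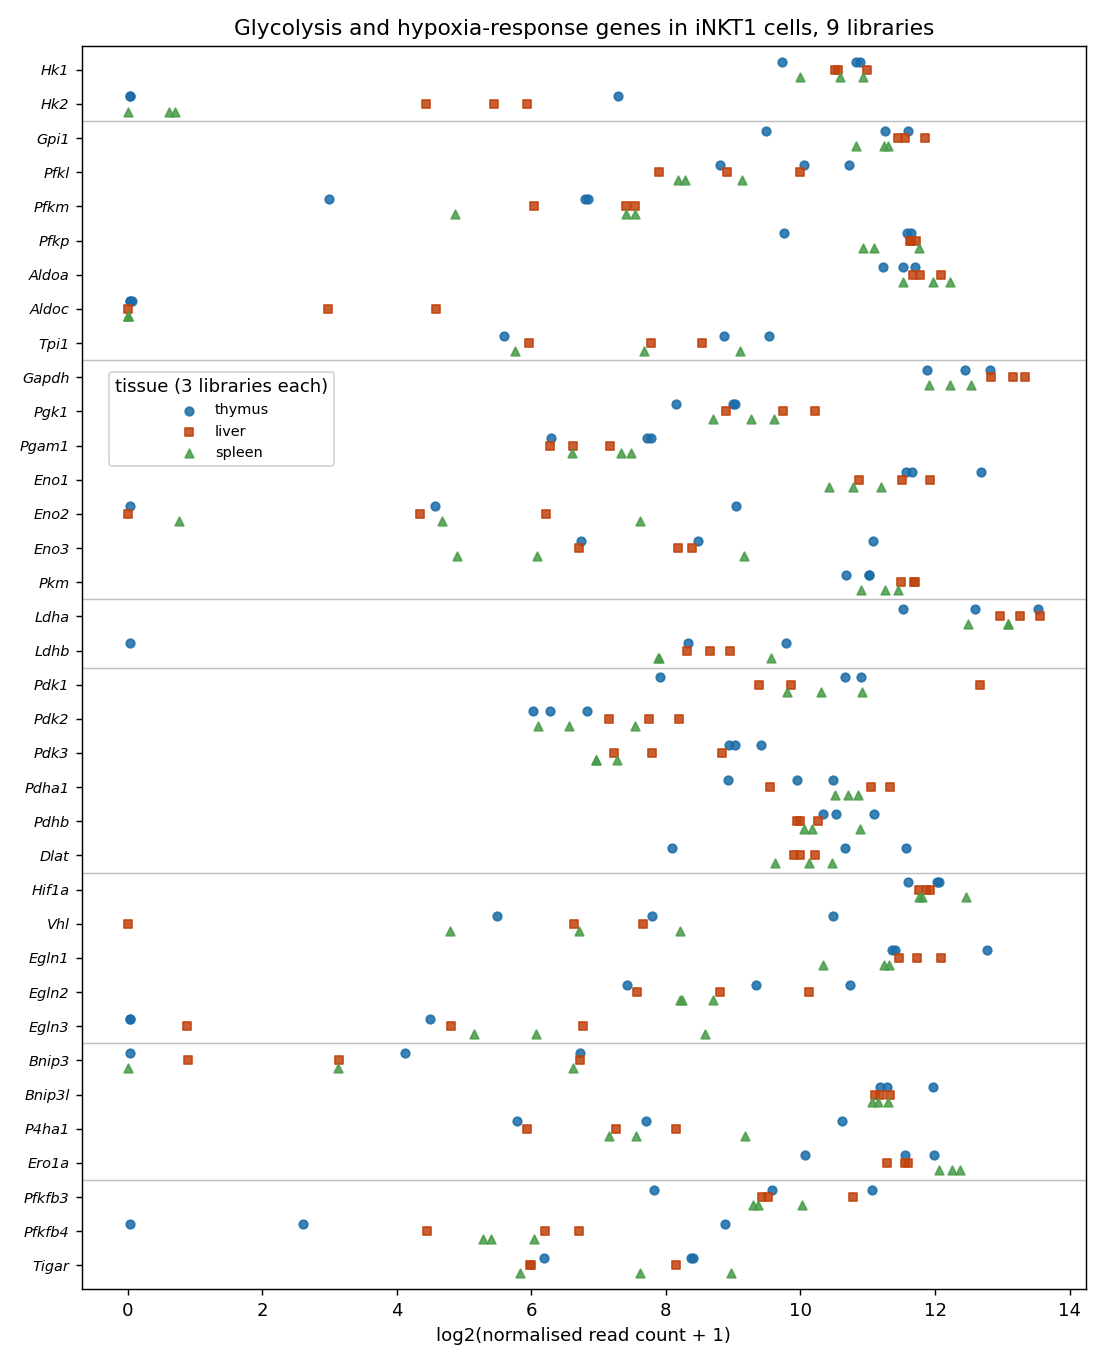
Level of each of the 36 members in each library. The x axis is log2(normalised read count + 1), each symbol is 1 library, and thin lines separate the roles. Most enzymes of the main chain lie to the right with their tissues overlapping, while Hk2, Eno2, Ldhb, Egln3, Bnip3 and Pfkfb4 reach down to libraries without reads.

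Per kilobase of annotated exon, Ldha, the lactate dehydrogenase A chain, was the most abundant member. Its level per kilobase averaged 2487 over the 9 libraries, which was higher than 98.2% of the tested genes. Gapdh, glyceraldehyde-3-phosphate dehydrogenase, followed at 1555 per kilobase and Aldoa, the main aldolase, at 1206 per kilobase. The library ranges of these 3 overlapped, at 894 to 3646, 912 to 2498 and 827 to 1649 per kilobase, so their order is not beyond the spread. Next came Egln1 at 902, Hif1a at 666, Bnip3l at 658, Ero1a at 655, Eno1 at 558 and Pkm at 497 per kilobase. The other tested members ranged down to Hk2, the inducible hexokinase, at 5.21 per kilobase.

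Promoters of 4 members are shown because HIF acts through a short DNA core and these genes have the smallest p-values or the highest level of the list. The core searched was ACGTG or GCGTG on either strand, so that CACGTG, the E-box also read by other factors, counts on both strands. Each sequence is the 250 bases before the first start that RefSeq lists for the gene (GRCm38.p6), read 5′ to 3′ on the gene's strand with cores in capitals. That of Gapdh lies at chr6:125165774-125166023 (minus strand) and that of Ldha at chr7:46845554-46845803 (plus strand), both inside the gene's longest GENCODE extent with 0 exonic bases. That of Eno1, enolase 1, lies at chr4:150236458-150236707 (plus strand), and that of Egln3, a HIF prolyl hydroxylase, at chr12:54203875-54204124 (minus strand). Both of these lie outside any annotated gene.
Ldha: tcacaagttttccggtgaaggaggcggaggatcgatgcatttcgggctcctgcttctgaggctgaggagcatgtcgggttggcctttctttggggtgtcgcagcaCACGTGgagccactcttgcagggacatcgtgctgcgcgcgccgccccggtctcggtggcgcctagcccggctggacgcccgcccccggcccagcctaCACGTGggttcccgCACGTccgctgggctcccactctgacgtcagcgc
Gapdh: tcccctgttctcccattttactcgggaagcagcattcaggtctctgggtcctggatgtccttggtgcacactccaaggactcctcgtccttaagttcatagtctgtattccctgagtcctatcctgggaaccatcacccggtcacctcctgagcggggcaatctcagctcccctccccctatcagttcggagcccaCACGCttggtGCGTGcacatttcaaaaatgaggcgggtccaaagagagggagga
Eno1: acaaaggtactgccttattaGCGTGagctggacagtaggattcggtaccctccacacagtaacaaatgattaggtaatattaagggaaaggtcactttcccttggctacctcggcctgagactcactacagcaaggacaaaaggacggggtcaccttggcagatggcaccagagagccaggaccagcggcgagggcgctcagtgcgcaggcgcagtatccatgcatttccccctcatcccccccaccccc
Egln3: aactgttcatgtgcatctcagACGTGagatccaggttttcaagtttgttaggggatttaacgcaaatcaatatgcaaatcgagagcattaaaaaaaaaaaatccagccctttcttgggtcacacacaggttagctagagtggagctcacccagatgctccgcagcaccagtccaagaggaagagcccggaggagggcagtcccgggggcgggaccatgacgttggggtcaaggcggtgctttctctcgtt

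The Ldha window held 5 cores, among them CACGTG at a pair of positions, each counted once per strand. The Gapdh window held 2 cores, and those of Eno1 and Egln3 held 1 each. Over the 35 members with a RefSeq promoter (Bnip3l had no match), 26 windows held a core, 74.3%. Of all 27025 RefSeq promoters of this length 38.6% did, and of the 9133 that belong to genes tested here 57.1% did. The median GC content of these sets was 62%, 52% and 59.6% in the same order, and its part in the share was not tested. For 11 members RefSeq lists several starts, and only the first was read. Between liver and thymus the median log2 fold change was 0.42 for the 25 tested members with a core and -0.07 for the 9 without. In spleen vs thymus it was 0.07 and -0.04, and in liver vs spleen 0.37 and -0.06. These are descriptions of small sets, and a match is not a site of binding.

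Hexokinases trap glucose in the cell as its phosphate. Hk1, the constitutive form, was at 846 to 2035 over all libraries, with a log2 fold change of at most 0.21 in any comparison. Hk2 (ENSMUSG00000000628, chr6:82725025-82774454) was at 42.6, 20.6 and 60.4 in liver libraries 1, 2 and 3. In spleen it was at 0, 0.628 and 0.524, which is 2 reads in all. In thymus, libraries 1 and 2 had no read and library 3 stood at 155. Liver and spleen did not overlap, and the thymus libraries lay on both sides. By reads the liver was 74.7 times the spleen (95% interval 20 to 627, counting error only), and the log2 fold change was 4.84 (SE 1.97, limma-trend p 0.0263, adjusted p 1).

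The next enzymes turn glucose 6-phosphate into triose phosphates. Gpi1, glucose-6-phosphate isomerase, was at 716, 3108 and 2438 in thymus, at 3007, 3683 and 2792 in liver and at 2513, 1812 and 2414 in spleen. The liver values lay above all spleen values, and thymus library 1 was the lowest of the 9. Liver exceeded thymus by 0.84 on the log2 scale (SE 0.49, limma-trend adjusted p 0.523), and by 0.19 without thymus library 1. Pfkp, the platelet isoform of phosphofructokinase, the committed step, was at 3060, 867 and 3199 in thymus, at 3187, 3179 and 3368 in liver and at 1957, 3463 and 2175 in spleen. It was within a narrow band in liver, and thymus library 2 was far below the other libraries. The liver isoform Pfkl ranged from 237 to 1684 and the muscle isoform Pfkm from 6.97 to 186, with overlapping tissues.

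Aldoa was steady, at 2406 to 4800 over the 9 libraries. Aldoc had no read in any thymus or spleen library and was at 0, 6.84 and 22.9 in liver, a total of 12 reads. Reads were pooled over the libraries of a tissue, with 3 reads allowed for the other tissue. Taking the 12 reads as they are, the pooled ratio of liver is then at least 4.12 to thymus and 7.2 to spleen. With the counting error of the 12 reads included, the lower 95% bounds are 2.86-fold and 5-fold. These bounds leave out the spread between libraries, and liver library 1 had no read. Of the 12 reads, 4 came from liver library 3, whose reads are approximate. Tpi1, triosephosphate isomerase, ranged from 47.4 to 741 with the tissues overlapping.

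Gapdh had the smallest p of the list in both comparisons that involve liver. It (ENSMUSG00000057666, chr6:125161715-125166467) was at 7189, 3767 and 5577 in thymus, at 7262, 9181 and 10325 in liver and at 4800, 3838 and 5908 in spleen. All liver values were above all others, the lowest only just above thymus library 1. The means were 5511 ± 1712, 8923 ± 1548 and 4849 ± 1036 (SD, n = 3). Liver was 1.62 times thymus by the means. On the log2 scale the difference was 0.73 (SE 0.31, limma-trend p 0.0308, adjusted p 0.378). It was 0.95 without thymus library 1, 0.48 without thymus library 2 and 0.66 without both. Against spleen the ratio was 1.84 and the log2 fold change 0.89 (SE 0.31, 95% interval 0.23 to 1.54, limma-trend p 0.011, adjusted p 1). Neither passed the adjusted threshold. RefSeq names 3 pseudogenes of Gapdh, so reads may have been split between copies.

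Pkm, the pyruvate kinase of most dividing tissues, stood at 1632, 2073 and 2063 in thymus, at 3315, 2870 and 3282 in liver and at 1912, 2437 and 2806 in spleen. Again the liver values lay above all others, by a small margin over spleen library 3. Its spread within tissues was the smallest of the list, with an SD of 0.21 on the log2 scale. Liver exceeded thymus by 0.72 on that scale (SE 0.36, limma-trend adjusted p 0.451), and by 0.61 without thymus libraries 1 and 2. The summed level of markers of dividing cells was above thymus in liver as well, though Top2a overlapped, at 106 to 1784 in thymus and 964 to 4143 in liver. The summed level of Mki67, Top2a, Ccnb1 and Cdk1 was 4854 to 12009 in liver and 2209 to 3454 in thymus, while spleen, at 1781 to 7967, overlapped both. Hepatocyte markers had reads for 4 to 6 of 9 genes in the liver libraries and summed to 1390 to 1717 there, mostly Alb at 1172 to 1588. In thymus they summed to 109.9 to 868 and in spleen to 0.525 to 40.5. The thymus sum was mostly Trf, at 109.8, 598 and 205, which went the other way and was at 43.5, 7.69 and 19.3 in liver. B-cell markers, mostly Ighm, summed to 5470 to 8085 in liver, 3157 to 5351 in thymus and 5260 to 11124 in spleen. The part of any of these in the liver levels of Gapdh, Pkm and Hk2 was not tested.

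Eno1 went the other way. This enolase gene (ENSMUSG00000063524, chr4:150236721-150248879) was at 6592, 3042 and 3221 in thymus, at 1877, 3904 and 2919 in liver and at 2342, 1368 and 1750 in spleen. All spleen values lay below all thymus values, and the liver values overlapped both. The means were 4285 ± 1999, 2900 ± 1014 and 1820 ± 490.4 (SD, n = 3). In spleen vs thymus the log2 fold change was -1.18 (SE 0.42, 95% interval -2.07 to -0.28, limma-trend p 0.0138, adjusted p 0.29), and it was -0.82 without thymus library 1. In liver vs spleen it was 0.64 (SE 0.42, limma-trend adjusted p 1). A close copy, Eno1b, makes the level uncertain.

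The remaining enzymes of lower glycolysis were less even. Pgk1, phosphoglycerate kinase, ranged from 284 to 1192, and Pgam1, phosphoglycerate mutase, from 76.4 to 218, each with overlapping tissues and with named pseudogenes. The muscle enolase Eno3 ranged from 28.8 to 2155. The neuronal enolase Eno2 ranged from no read, in thymus library 2 and liver library 2, to 527 in thymus library 1.

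Ldha (ENSMUSG00000063229, chr7:46841475-46855627) was high everywhere and overlapped between tissues. It was at 6178, 2959 and 11858 in thymus, at 12069, 8025 and 9805 in liver and at 8731, 5752 and 8709 in spleen. The thymus libraries spanned nearly the whole range. Liver minus thymus was 0.71 on the log2 scale (SE 0.40, limma-trend adjusted p 0.503). It was 0.73 without thymus library 1 and 0.20 without thymus library 2. Without both it became -0.27, with thymus library 3, the one with Rag1 reads, as the lone thymus library. Even its direction thus depended on which thymus libraries were kept. Ldhb, whose chain favours pyruvate formation from lactate, had no read in thymus library 2 and was at 234 to 879.9 in the other 8. Its means were 400.3 in thymus and 404 in liver, while its liver vs thymus log2 fold change was 2.59 (SE 1.84).

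**Figure D2:**
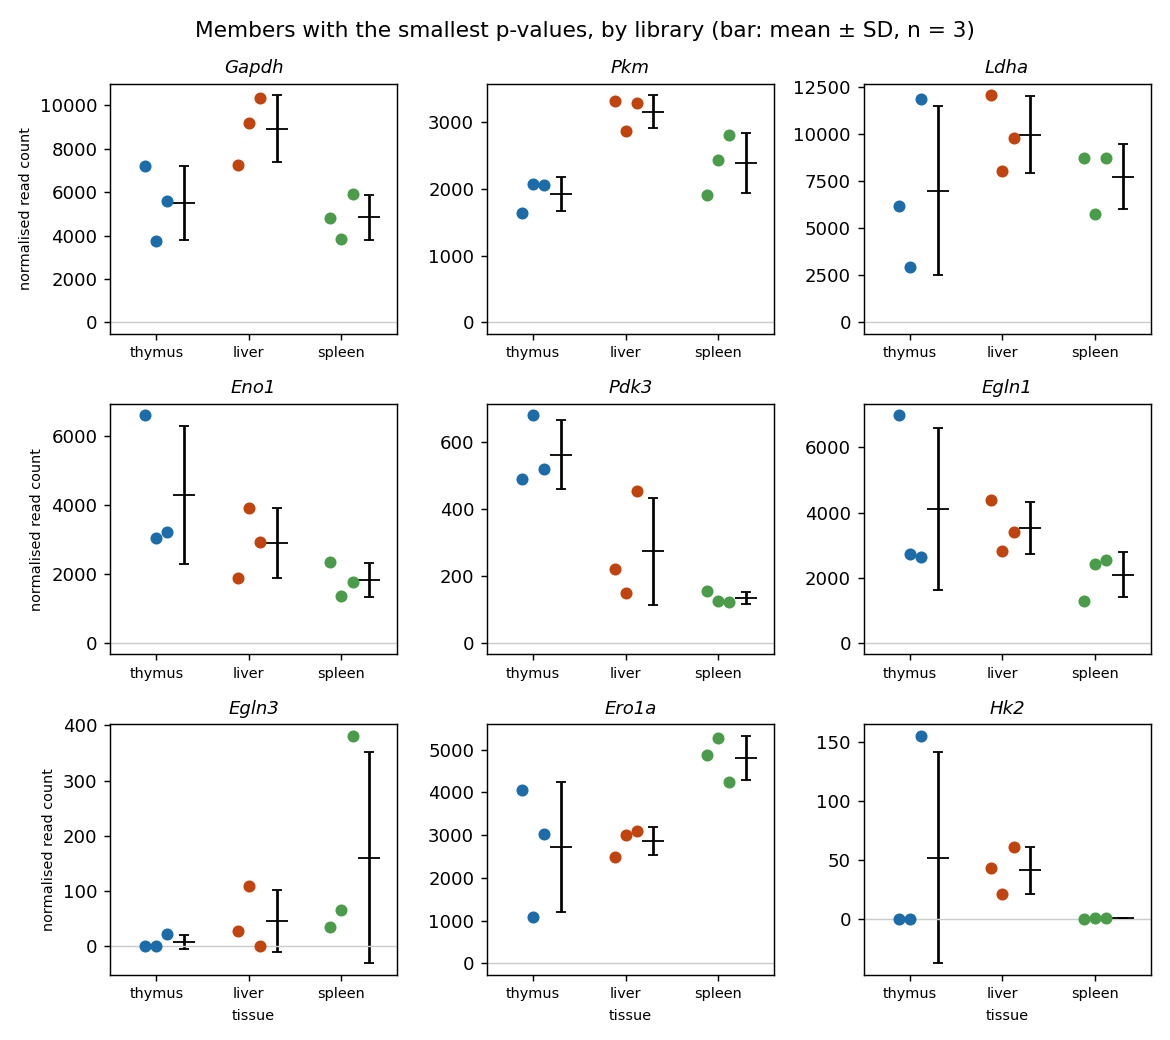
Level of 9 members in each library, on a linear axis of normalised read count. Points are libraries in the order 1, 2, 3 and bars give the mean ± SD (n = 3). Gapdh and Pkm are highest in the liver libraries, Ero1a in spleen and Pdk3 in thymus, while Hk2 and Egln3 combine libraries without reads with high ones.

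The pyruvate dehydrogenase kinases switch off the entry of pyruvate into the citric acid cycle. Pdk1, a classical HIF target, was at 239.9, 1900 and 1616 in thymus, at 6511, 929 and 667 in liver and at 894, 1937 and 1260 in spleen. A single liver library held the high value, and the tissues overlapped. Pdk2 was at 63.9 to 112 in thymus and 142 to 291 in liver, without overlap, and at 67.8 to 185 in spleen (liver vs thymus log2 fold change 1.33, SE 1.20, limma-trend adjusted p 0.696).

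Pdk3 (ENSMUSG00000035232, chrX:93764607-93832201) was at 489.9, 681 and 520.2 in thymus, at 220.1, 149 and 454 in liver and at 154, 124 and 123 in spleen. Every thymus value was above every liver and spleen value, and the spleen libraries lay close together. Spleen was 4.21 times lower by the means of 564 ± 103 and 134 ± 17.7 (SD, n = 3). The log2 fold change was -2.06 (SE 0.89, 95% interval -3.96 to -0.16, limma-trend p 0.0356, adjusted p 0.381). With DESeq2 on the recovered reads it was -2.11 with an adjusted p of 0.0386, a call that none of the other 23 alternatives made (adjusted p up to 0.656). Liver differed from thymus by -1.18 on the log2 scale (SE 0.89, limma-trend adjusted p 0.635).

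Of the complex itself, Pdha1, the α chain of its first enzyme, was at 483 to 1426 in thymus and 1459 to 1857 in spleen, without overlap, and at 749 to 2573 in liver. Pdhb, the β chain, was at 1284 to 2176 in thymus and 988 to 1230 in liver, also without overlap, and at 1065 to 1896 in spleen. The limma-trend adjusted p-values were 0.552 for Pdha1 in spleen vs thymus and 0.658 for Pdhb in liver vs thymus. Dlat, the acetyltransferase subunit, ranged from 272 to 3049, both extremes in thymus.

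The regulator itself did not stand out in any tissue. Hif1a (ENSMUSG00000021109, chr12:73901375-73947530) was at 4185, 3092 and 4273 in thymus, at 3901, 3719 and 3482 in liver and at 3590, 3457 and 5649 in spleen. Highest and lowest library differed 1.83-fold, the smallest span of any member. The log2 fold change was -0.04 in liver vs thymus (95% interval -0.72 to 0.64) and 0.11 in spleen vs thymus (-0.57 to 0.80). In liver vs spleen it was -0.16 (-0.84 to 0.52). HIF-1α is controlled largely as a protein, which was not measured.

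Vhl, the substrate receptor of the ligase, varied far more. It was at 1438, 44 and 221 in thymus, at 0, 201 and 98.1 in liver and at 26.8, 294 and 104 in spleen. The tissues overlapped, and liver library 1 had no read. The log2 fold change of -3.16 in liver vs thymus (SE 2.01, limma-trend adjusted p 0.553) became -0.78 without liver library 1.

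The 3 prolyl hydroxylases differed in level and in pattern. Egln1, the main oxygen sensor, was at 6984, 2722 and 2632 in thymus, at 4373, 2811 and 3392 in liver and at 1289, 2424 and 2556 in spleen. All spleen values lay below all thymus and all liver values, though spleen library 3 came close to thymus library 3. Its log2 fold change was -0.88 in spleen vs thymus (SE 0.44, limma-trend adjusted p 0.448) and 0.79 in liver vs spleen (SE 0.44, limma-trend adjusted p 1). Without thymus library 1 the first was -0.42, and without spleen library 1 the second was 0.48. Egln2 ranged from 170 to 1699, both extremes in thymus.

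Egln3 (ENSMUSG00000035105, chr12:54178981-54203860), itself a HIF target, had no read in thymus libraries 1 and 2 and was at 21.4 in thymus library 3. It was at 26.9 and 108 in liver libraries 1 and 2, with no read in library 3, and at 34.3, 66.1 and 381 in spleen. Every spleen value lay above every thymus value. The log2 fold change was 5.08 (SE 2.06, 95% interval 0.69 to 9.46, limma-trend p 0.0261, adjusted p 0.345), and it was 4.09 without spleen library 3. Without thymus libraries 1 and 2, those with no read, it was 2.11 with a limma-trend adjusted p of 0.784.

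Ero1a, an oxidase of the endoplasmic reticulum induced by hypoxia (ENSMUSG00000021831, listed in the annotation as Ero1l, chr14:45283087-45318771), was at 4062, 1072 and 3018 in thymus. It was at 2498, 3013 and 3096 in liver and at 4877, 5282 and 4247 in spleen. All spleen values were above all others. The means were 2717 ± 1517, 2869 ± 324 and 4802 ± 521 (SD, n = 3). The log2 fold change was 1.02 in spleen vs thymus (SE 0.43, limma-trend p 0.0328, adjusted p 0.369) and -0.74 in liver vs spleen (SE 0.43, limma-trend p 0.107, adjusted p 1). Spleen library 1 stood apart by other markers, with a B-cell sum of 11124 and a myeloid sum of 1852, against 5260 to 9367 and 24 to 114 in the other spleen libraries. Without that library the spleen vs thymus log2 fold change was 5.80 for Egln3, -1.37 for Eno1, -2.17 for Pdk3 and -0.57 for Egln1. Without thymus libraries 1 and 2 it was 0.66 for Ero1a, 2.11 for Egln3, -0.86 for Eno1, -1.96 for Pdk3 and -0.40 for Egln1. With any 1 library left out that of Ero1a ran from 0.45, without thymus library 2, to 1.41, while its liver vs spleen value stayed between -0.83 and -0.65.

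The mitophagy receptors Bnip3 and Bnip3l are both HIF targets. Bnip3 was at 105 in thymus library 1, no read in library 2 and 16.4 in library 3. It was at 7.8 and 105 in liver libraries 1 and 2 with no read in library 3, and at 0, 97 and 7.7 in spleen. Each tissue thus held 1 library without a read and 1 near 100. Bnip3l was at 2147 to 3993 over all 9, a 1.86-fold span. P4ha1, a collagen prolyl hydroxylase subunit, was at 1567, 54.4 and 208 in thymus, at 60, 283 and 152 in liver and at 141, 578 and 187 in spleen, with overlap throughout.

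The level of fructose 2,6-bisphosphate sets the pace of phosphofructokinase. Pfkfb3, which makes it, was at 226, 761 and 2140 in thymus, at 685, 1757 and 733 in liver and at 1042, 625 and 657 in spleen. Thymus held both its lowest and its highest library. Pfkfb4, a related enzyme, ranged from no read in thymus library 2 to 470.4 in thymus library 1. Its mean was 65.7 in liver and 158 in thymus, while its log2 fold change was 1.95, so the sign depended on the scale. Hk2 had the same disagreement in that comparison, with means of 41.2 and 51.7 and a log2 fold change of 2.82. Tigar, which lowers fructose 2,6-bisphosphate, ranged from 55.9 to 500.3.

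Gathered over the list, 18 of 35 members had a log2 fold change above 0 in liver vs thymus, 17 in spleen vs thymus and 22 in liver vs spleen. Of all tested genes 59.9%, 61.2% and 48.9% did. The median fold change of the members was 0.21, -0.04 and 0.30 on the log2 scale, beside 0.29, 0.33 and -0.02 for all genes. Above the median of all genes lay 16, 12 and 22 of the 35 members in the same order.

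The values of liver and thymus did not overlap for 5 of 35 members, 14.3%, against 15.3% of all tested genes. Gapdh, Pkm and Pdk2 were higher in liver, 8.57% of the members against 9.61% of all genes, and Pdk3 and Pdhb lower, 5.71% against 5.73%. Spleen and thymus did not overlap for 6 members, 17.1%, against 15.3% of all genes. There Pdha1, Egln3 and Ero1a were higher in spleen and Eno1, Pdk3 and Egln1 lower, 8.57% of the members each way against 9.29% and 6.03% of all genes. These shares are near the background. Liver and spleen did not overlap for 6 members, 17.1% against 12.7%. Of these, Hk2, Gpi1, Gapdh, Pkm and Egln1 were higher in liver, 14.3% of the members against 5.97% of all genes. Ero1a was lower in liver, 2.86% against 6.77%. None of the 6 passed the adjusted threshold.

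**Figure D3:**
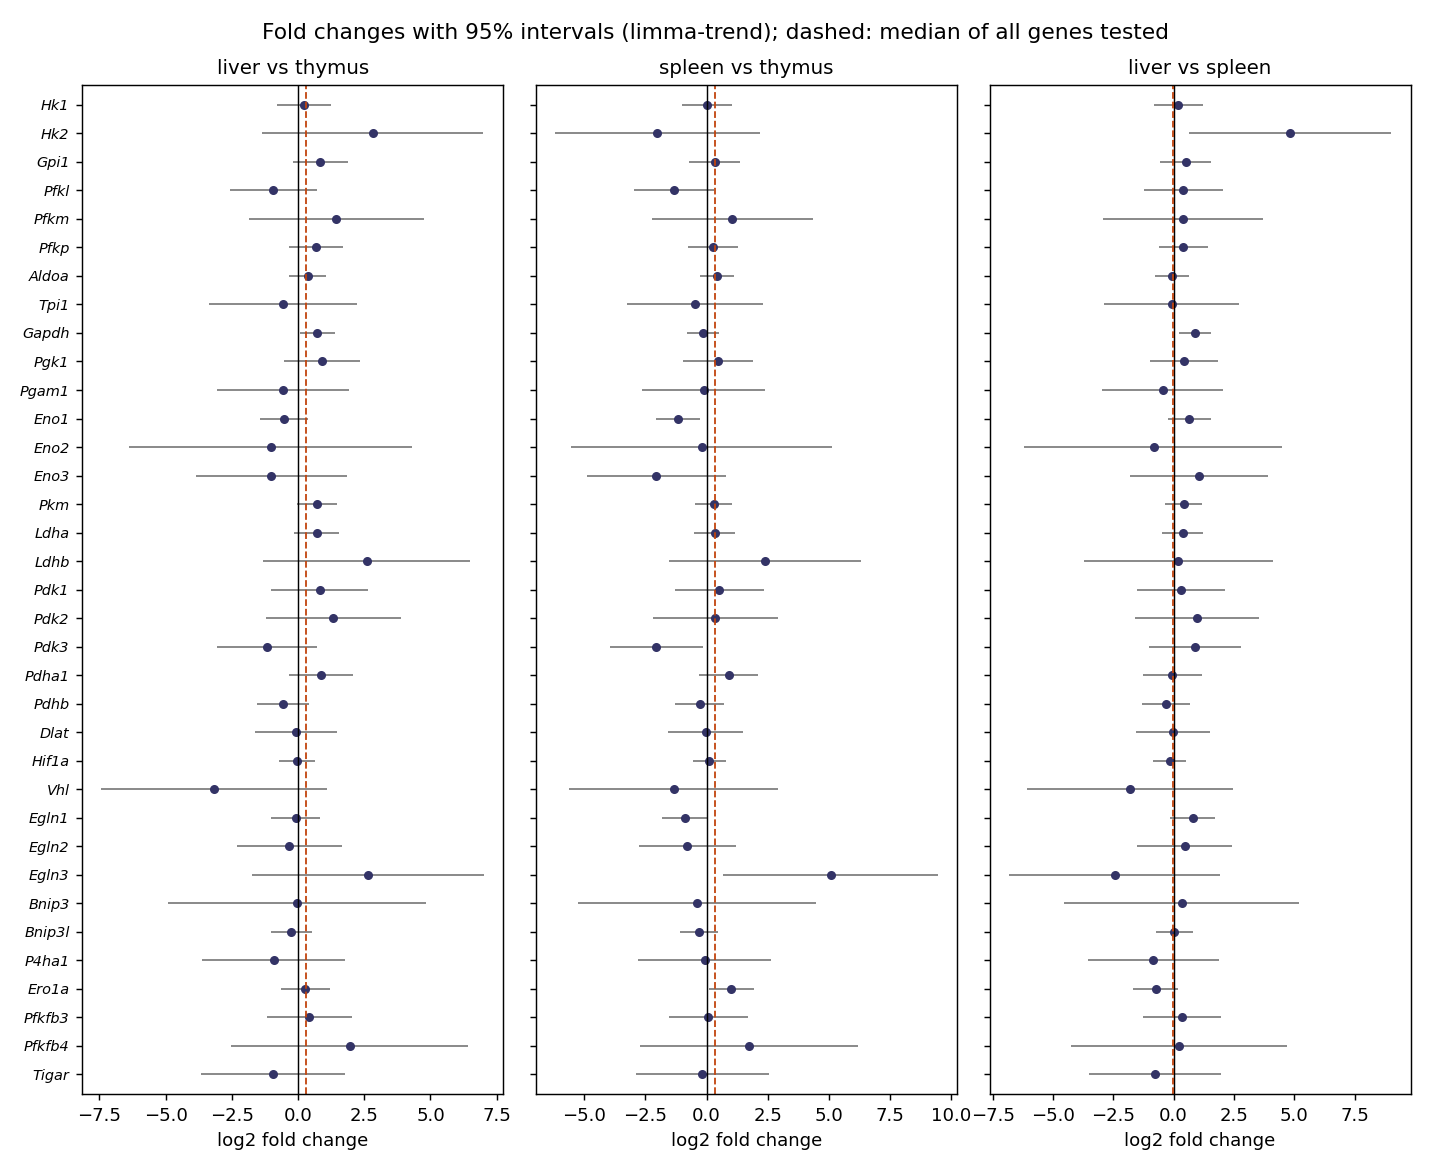
Log2 fold change of the 35 tested members in the 3 pairwise comparisons, with 95% intervals from limma-trend. The dashed line is the median of all tested genes (0.29, 0.33 and -0.02), the solid line is 0, and the axes differ in range. Most intervals span 0, and those of Hk2, Eno2, Vhl, Egln3, Bnip3 and Pfkfb4 are several log2 units wide.

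The mean over all 36 members of log2(value + 1) was 9.01, 7.54 and 8.97 in thymus libraries 1, 2 and 3. In liver it was 8.56, 9.04 and 8.81, and in spleen 8.33, 8.68 and 8.64. Thymus library 2 was the low one, with 7 of 36 members at no read against 1 to 3 in the other libraries. The tissue means were 8.51 ± 0.84, 8.80 ± 0.24 and 8.55 ± 0.19 (SD, n = 3), so liver minus thymus was 0.29, spleen minus thymus 0.04 and liver minus spleen 0.25. For all tested genes, a set not matched on level, those differences were 0.58, 0.60 and -0.02. Without thymus library 2 the members' differences from thymus turned to -0.19 for liver and -0.44 for spleen. Those of all tested genes were then 0.51 and 0.53.

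**Figure D4:**
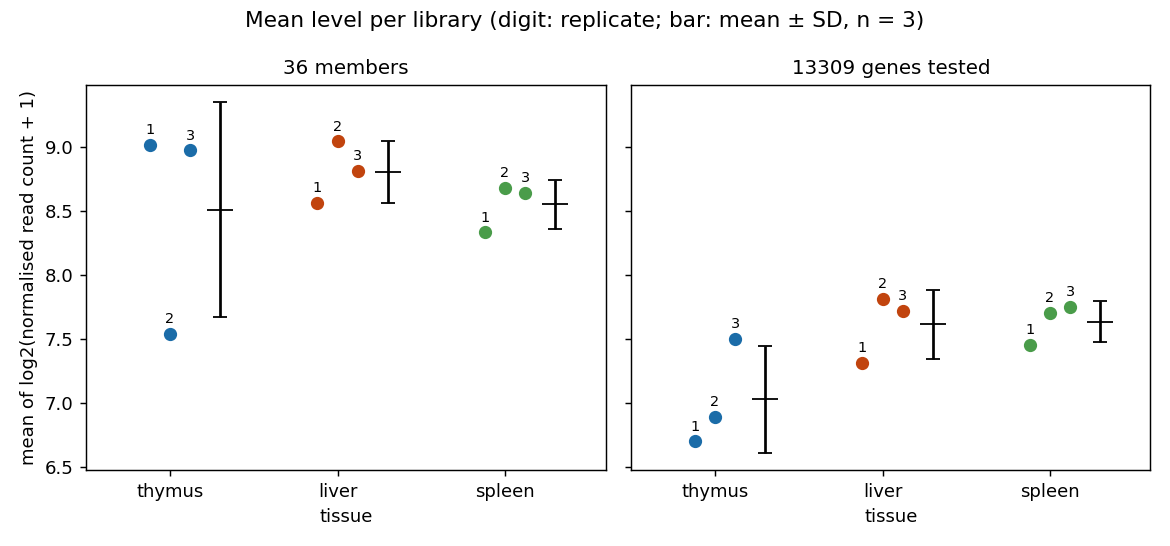
Mean of log2(normalised read count + 1) per library, over the 36 members on the left and the 13309 tested genes on the right. Digits give the library number and bars the mean ± SD (n = 3). Thymus library 2 is lowest for the members at 7.54, while thymus library 1 is lowest for all genes at 6.70.

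By role, the mean of the pyruvate dehydrogenase group varied least between libraries in the periphery, at 9.51 ± 0.15 in liver and 9.21 ± 0.04 in spleen on that scale. Single members could vary far more, as Pdk1 did in liver, with normalised read counts of 6511, 929 and 667. Upper glycolysis was at 8.72 ± 0.51 in liver and 8.13 ± 0.40 in spleen, and lower glycolysis at 9.11 ± 0.48 and 8.80 ± 0.16. For the hexokinase pair the mean was 7.98 ± 0.48 in liver and 5.47 ± 0.42 in spleen, with Hk1 averaging 1671 and 1499 normalised reads there. The lactate pair was at 10.95 ± 0.27 in liver and 10.67 ± 0.59 in spleen. The remaining groups had the lower mean in liver, within their SDs. HIF and its control was at 8.27 ± 0.90 in liver and 8.90 ± 0.75 in spleen, and the HIF targets at 8.35 ± 0.95 and 8.65 ± 1.09. The fructose 2,6-bisphosphate group was at 7.47 ± 0.99 and 7.53 ± 0.44. In thymus each group had an SD of at least 0.67 (n = 3).

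The spread between libraries of a tissue differed widely between members. The within-tissue SD on the log2 scale had a median of 0.72, from 0.21 for Pkm to 3.75 for Eno2. The median over all tested genes, not matched on level, was 1.31. In 8 members the highest library was under 3 times the lowest. At the other end, 8 members had a library with 3 reads or fewer.

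The balance between isoforms was compared within each library. Where a gene has few or no reads, the ratio is set by the 1 added to each value and is a floor rather than a measured ratio, as for Hk2 in spleen and Egln3 in thymus libraries 1 and 2. The log2 ratio of Hk2 to Hk1, each with 1 added, was -5.42 ± 0.62 in liver and -10.06 ± 0.22 in spleen (SD, n = 3). In thymus it was -10.85, -9.69 and -3.54, so library 3 lay beyond the liver values. Thymus libraries 1 and 2 had no Hk2 read, so their nearness to the spleen values is set by the 1 added. The ratio of Egln3 to Egln1 was -10.33 ± 3.07 in thymus, -7.61 ± 3.10 in liver and -4.37 ± 1.41 in spleen. That of Pfkp to Pfkl was 2.73 ± 1.09 in liver, 2.73 ± 0.16 in spleen and 1.14 ± 1.58 in thymus. Ldhb to Ldha was -4.63 ± 0.30 in liver and -4.45 ± 0.85 in spleen.

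The 8 further lists cover the rest of the pathway, 93 tested genes of 110 listed. With limma-trend, 0 of them passed in liver vs thymus, 1 in spleen vs thymus and 0 in liver vs spleen. At an unadjusted p under 0.05 there were 7, 8 and 1 genes in that order, beside 11.6%, 11.7% and 3.03% of all genes tested. The gene called in spleen vs thymus was Rora, a nuclear receptor that HIF-1 can induce. It was at 1693, 2822 and 3534 in thymus, at 5911, 8984 and 6433 in liver and at 5695, 9771 and 13276 in spleen. Liver and spleen values lay above all thymus values. Rora rose in spleen by 1.82 on the log2 scale against thymus (SE 0.36, limma-trend p 1.58e-04, adjusted p 0.043), and in liver its value was 1.45 (SE 0.36, limma-trend adjusted p 0.15). The spleen call held in 9 of 24 alternatives, and their adjusted p ran from 7.22e-04 to 0.344. Among the fits that each left out 1 library it held only without thymus library 3, and the others gave limma-trend adjusted p-values from 0.0552 (without spleen library 1) to 0.291. Without thymus libraries 1 and 2 the Rora log2 fold change was 1.35. Of the 17 other tested genes of that list of hypoxia targets, 0 passed.

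The remaining lists held 0 calls each in limma-trend, and for most of them a gene with the smallest p of a comparison is described, though not for every comparison. Among the glucose and lactate carriers Slc2a6 was at 70.6, 19.7 and 40.8 in liver and had no read in any spleen library (limma-trend p 0.00533, adjusted p 1). In thymus it had reads only in library 3, at 18.8, as did Hk2. Slc2a3, the high-affinity glucose transporter of T cells, was at 2735 to 3548 in thymus, 4033 to 5964 in liver and 4336 to 5568 in spleen (spleen vs thymus limma-trend adjusted p 0.461). Cs, citrate synthase at the entry of the citric acid cycle, was at 3858 to 6804 in thymus, 2423 to 4225 in liver and 1900 to 2209 in spleen. Its spleen vs thymus log2 fold change was -1.28 (SE 0.35, limma-trend p 0.0025, adjusted p 0.173), with no overlap of the values.

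Of the other enzymes of sugar metabolism, Pgm2, a phosphoglucomutase, was at 49.4 to 227 in thymus, 294 to 569 in liver and 455 to 681 in spleen (spleen vs thymus limma-trend adjusted p 0.336). Taldo1, the transaldolase of the pentose phosphate pathway, was at 109, 109.9 and 768 in thymus, at 1064, 1020 and 1193 in liver and at 716, 598 and 583 in spleen. Its liver values lay above all others, with a log2 difference of 2.37 from thymus (SE 0.80, limma-trend adjusted p 0.268). In the HIF pathway Elob, an adaptor of the VHL ligase, was at 146 to 473 in thymus and 699 to 966 in spleen (limma-trend adjusted p 0.333). Among the regulators Mlxip, a glucose-sensing transcription factor, was at 3930 to 8536 in thymus and 2745 to 3610 in liver (limma-trend adjusted p 0.415), and Max, the partner of Myc, had the smallest p in spleen vs thymus, with overlapping values (limma-trend adjusted p 0.355). The other pyruvate dehydrogenase genes had limma-trend p-values of 0.271 or more.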

How the data were processed

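The deposited table gives 1 value per gene and library, a signal in the form of the authors' normalised read count. Per the submitters' processing notes, Trimmomatic 0.33, TopHat2 2.1.0, HTSeq 0.6.1, edgeR and the build mm10 were used, with no role or order stated. The scaling is not given in the sources used here. Per the labels' protocols, total RNA was made into libraries with an ultralow-input kit and sequenced for 76 cycles. Low values are whole multiples of 1 step per library, from which whole reads were recovered. Of 15737 low values 93.7% lay within 0.1 read of a whole number, but only 74.2% in liver library 3, so its reads are approximate.

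Tests had been planned for counts, with limma-trend for normalised values as the fallback, which was used (limma 3.58.1, R 4.3.3). It ran on log2(value + 1), over the 13309 genes that reached 1 in 3 or more libraries, with 3 tissue terms and all 9 libraries. Tests are two-sided with Benjamini-Hochberg adjustment over all genes and a threshold of 0.05. Fold changes on this scale can understate changes of low genes. Where a tissue holds a library without reads, they can also exceed the change of the means or differ from it in sign. Groups are given as mean ± SD. Symbols matched 13359 of 14004 gene identifiers, and coordinates and exon lengths came from GENCODE on GRCm38. edgeR 4.0.16 and DESeq2 1.42.0 on the recovered reads were alternatives, among 24 in all. The scripts were tested on simulated data.

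The members, lists and tests were chosen with earlier results of these data known. Values per library are given for the 5 members with the smallest p per comparison and for 13 members listed by name. They are also given for members without reads in a whole tissue and for list genes past the threshold. Of the list genes with the smallest p in a comparison, some are given by values or ranges, and others are not named. The other members are given by their ranges.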

Additional observations from a re-analysis of the deposited data

How the results depend on the processing

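The count of members past the threshold was 0 in each comparison under every alternative run, apart from DESeq2 on the recovered reads in spleen vs thymus, which gave 1 (Pdk3, adjusted p 0.0386). Leaving out each library in turn gave 0 to 0 members in each comparison. Whether the replicate numbers pair the libraries is not settled. The labels do not say so, and same-numbered libraries had correlations of deviations of -0.001 to 0.089 (median 0.043, other pairs -0.019). Of 9 libraries, 7 correlated best with one of their own number, a hint from the data only. With the replicate block 0 members passed in each comparison.

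Over all genes, DESeq2 called 453, 510 and 24 and edgeR 22, 37 and 2, where limma-trend called 43, 53 and 2 in liver vs thymus, spleen vs thymus and liver vs spleen. The F-test has no form with only the 6 libraries of a comparison.

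The difference of the members' mean log2(value + 1) depended on the libraries. With only the libraries numbered 1 and 3 it was -0.31 for liver minus thymus and -0.51 for spleen minus thymus. For all tested genes these differences were 0.41 and 0.49. For the members, leaving out 1 library gave -0.19 to 0.54 for liver minus thymus and -0.44 to 0.29 for spleen minus thymus. For liver minus spleen it gave 0.13 to 0.37. Scaling by TMM gave -0.24 for spleen minus thymus, beside 0.34 for all tested genes. The cause was not tested. The Ldha log2 fold change in liver vs thymus reversed to -0.27 without thymus libraries 1 and 2, a setting chosen after seeing the data, in which the lone thymus library is assumed to vary like the other tissues. The Hk2 to Hk1 ratio in spleen was -7.13 with a pseudocount of 10. Hk2, Aldoc, Eno2, Ldhb, Vhl, Egln3, Bnip3 and Pfkfb4 have libraries at 3 reads or fewer, which limits their comparison. In libraries 1, 2 and 3 such members numbered 3, 7 and 1 in thymus, 2, 1 and 3 in liver and 4, 2 and 2 in spleen. The part of depth in this was not tested.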
